A study of Ovis aries with 7 samples.

Results

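The genes described are 10 enzymes and cofactors that put methyl groups on DNA, keep them there or start their removal: DNMT1, DNMT3A, DNMT3B, UHRF1, UHRF2, HELLS, TET1, TET2, TET3 and TDG. They were chosen by name, and all 10 were found among the 31304 rows of the expression table, of which 16539 carry a gene symbol. The samples are 8-cell embryos of the sheep, Ovis aries, and the study set 3 libraries from embryos made by in vitro fertilization (IVF) beside 4 from somatic cell nuclear transfer (SCNT), in which the nucleus of a body cell replaces that of the egg. The labels name no strain, genotype, agent or donor cell for either group. Values below belong to the 3 IVF libraries; the SCNT libraries were not analysed here, since the remaining columns of the table carry names that no sample label uses. RNA was polyA-selected and amplified by Smart-seq2, a method for very small inputs. Nothing in the labels ties a library to a separate trial or gives its number of embryos, so differences between libraries can include technical ones.

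In mammals DNA is methylated mainly on the cytosine of CpG dinucleotides. DNMT1 copies the mark onto the new strand after replication, and UHRF1 brings it to half-methylated sites. DNMT3A and DNMT3B set the mark on unmethylated DNA. TET enzymes oxidise methylcytosine, and TDG cuts out its more oxidised forms so that repair can restore plain cytosine. Early mammalian embryos lose much of the methylation brought by egg and sperm before a new pattern is laid down, and TET3 and DNMT1 are known as products that the egg stores. The RNA level of these genes says nothing by itself of enzyme activity or of methylation, which the libraries did not measure.

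The values are TPM, transcript abundances scaled by gene length and library total. Within a library they can be set side by side as listed abundances, and between libraries only as shares of each library's total. How far polyA selection, amplification and the counting tool, which is not named, shift levels between genes was not tested. The table gives no read counts, so the depth behind each value is unknown. IVF libraries held 9027, 9392 and 8779 gene symbols at 1 TPM or more in replicates 1, 2 and 3, with a median symbol at 1.47, 1.74 and 1.32 TPM. Of a list of 14 genes of the egg and early embryo, 12 were at 10 TPM or more in every library (21.7% of all symbols were), led by ARGFX, a homeobox gene of early embryos (614 ± 355 TPM, SD, n = 3), and the oocyte importin KPNA7 (415 ± 116). The other 2, the oocyte genes ZAR1 (0.983 ± 0.724) and NLRP5 (0.662 ± 0.611), had means below 1 TPM. The lists in this paragraph were chosen with earlier results of these data known, so their counts are a description and not a test of identity. In the lists of cumulus and granulosa, fibroblast and sperm markers, 0, 0 and 1 genes were at 10 TPM or more in every library. The counts at 1 TPM that follow stand beside 49% of all gene symbols. Of 12 cumulus and granulosa markers 4 reached 1 TPM in every library, KRT8 (12.0 ± 3.35) and HAS2 (10.01 ± 3.00) being highest, and PTX3 and FOXL2 were listed at 0 throughout. Of 12 fibroblast markers 3 reached 1 TPM in every library, with VIM at 7.90 ± 1.25 and FN1 at 3.03 ± 0.948, and POSTN was listed at 0. Of 10 sperm markers only SPACA1 did so, at 25.7 ± 10.9, followed by TNP2 at 2.08 ± 0.954, and PRM1 and AKAP4 were listed at 0.

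UHRF2, UHRF1, DNMT1 and HELLS were the most abundant of the set, followed by DNMT3A. TET1, DNMT3B, TET2 and TET3 were lower, and TDG was lowest. Of the 10 genes, 9 were at 1 TPM or more in all IVF libraries, the exception being TDG; among all gene symbols 49% reached that level. The same 9 genes had a mean of at least 1 TPM, which is the filter used for comparisons between libraries. Per library the median of the 10 was 5.99, 11.2 and 5.41 TPM in replicates 1, 2 and 3. By mean log2(TPM + 1), the order from high to low was UHRF2, UHRF1, DNMT1, HELLS, DNMT3A, TET1, DNMT3B, TET2, TET3 and TDG.

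**Figure D1:**
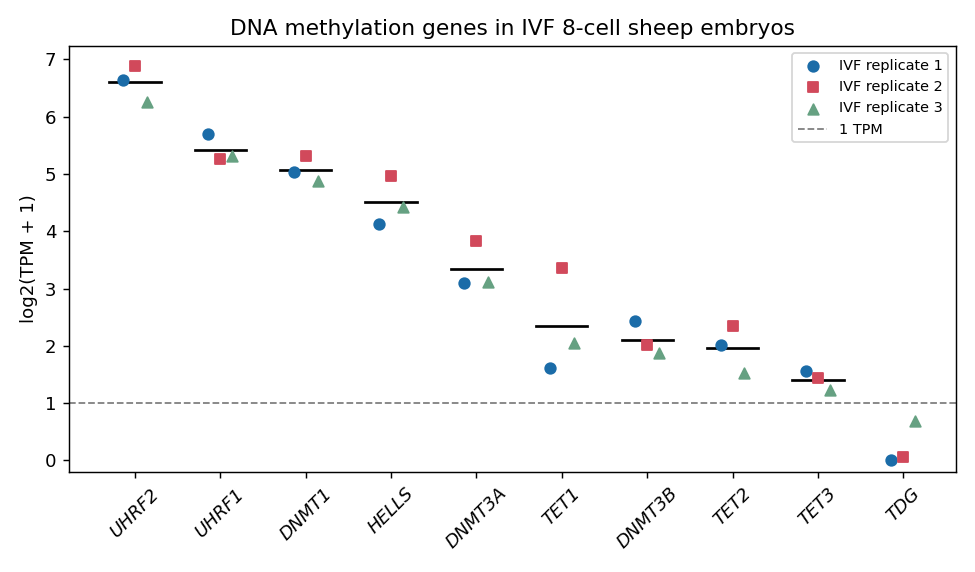
Level of each gene as log2(TPM + 1) in the 3 IVF libraries, ordered by mean; points are libraries, black bars their mean (none is drawn for TDG) and the dashed line marks 1 TPM. UHRF2 lies highest in every library, TET1 shows the widest gap between libraries, and TDG is below 1 TPM in every library.

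A pair of neighbours in that order were called apart here when the log2 difference had the same sign in all libraries and its mean exceeded its SD. Of the 9 neighbouring pairs, 6 met this and 3 did not: UHRF1 with DNMT1, TET1 with DNMT3B, and DNMT3B with TET2. Over all 45 possible pairs 40 met it, and the 5 that did not were those 3 together with TET1 against TET2 and TET1 against TET3. Some of these calls changed with the setting. TET1 was apart from TET3 with a pseudocount of 0.1 (1.20 ± 1.16), with median-of-ratios scaling (0.918 against an SD of 0.917) and without replicate 1 (1.37 ± 0.78), where TET1 and TET2 were apart too. Without replicate 2, UHRF1 was apart from DNMT1 and DNMT3B from TET2. Over these settings 40 to 42 of the 45 pairs were apart. Every pair with TDG, whose level is uncertain, was among those apart. The share of other gene pairs that meet the rule was not computed, so these counts show no trait particular to the set. The rule is a description of spread and not a test: with 3 libraries an exact two-sided sign-flip test cannot give a p below 0.25.

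The maintenance enzyme DNMT1 was at 31.9, 38.9 and 28.4 TPM in replicates 1, 2 and 3, higher than 86.7%, 87.7% and 86.4% of gene symbols. Its level was thus close to even across the libraries, with a log2 SD of 0.22. UHRF1, which reads half-methylated DNA and recruits DNMT1, was at 50.6, 37.5 and 38.9 TPM, highest in replicate 1. UHRF1 exceeded DNMT1 in replicates 1 and 3, whereas the pair was level in replicate 2. DNMT1 minus UHRF1 was -0.65, 0.05 and -0.44 on the log2(TPM + 1) scale, a mean of -0.35 ± 0.36 that did not exceed its spread. Without replicate 2 it was -0.55 ± 0.15, which did. In the gene table of the sheep assembly ARS-UI_Ramb_v3.0, which may not be the build used for the files, the protein-coding gene ARRDC5 overlaps 10.3% of the span of UHRF1. ARRDC5 was listed at 0 in all libraries.

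UHRF2, a paralog of UHRF1 that also binds methylated DNA, was the most abundant of the 10 genes. It was at 99.3, 118 and 75.9 TPM in replicates 1, 2 and 3, above 94.0%, 94.8% and 92.9% of gene symbols. UHRF2 exceeded UHRF1 in every library, with ratios of 1.96, 3.14 and 1.95. UHRF1 minus UHRF2 was -1.18 ± 0.39 on the log2(TPM + 1) scale (n = 3). UHRF2 provided 69.4 ± 5.58% of the TPM of the pair, with 75.8% in replicate 2 and 66.2% and 66.1% in replicates 1 and 3. UHRF2 alone made up 44.6 ± 2.27% of the summed TPM of all 10 genes, a share that ranged from 42.0% to 46.1%.

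HELLS, a chromatin remodeler needed for methylation of repeated DNA, was at 16.5, 30.1 and 20.5 TPM in replicates 1, 2 and 3. It was highest in replicate 2, and lay below DNMT1 in every library by 0.91, 0.36 and 0.45 on the log2(TPM + 1) scale. It lay above DNMT3A in every library by 1.16 ± 0.14, the most even difference among the 9 neighbouring pairs. CDCA7, the zinc finger protein that works with HELLS, was lower, at 5.46, 4.51 and 2.24 TPM. HELLS was thus 3.02, 6.69 and 9.15 times CDCA7.

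DNMT3A led the de novo enzymes. It was at 7.60, 13.2 and 7.69 TPM in replicates 1, 2 and 3, so that replicates 1 and 3 were nearly equal and replicate 2 was higher. DNMT3B was at 4.38, 3.06 and 2.66 TPM, and its highest value was in replicate 1. The pair thus had different high libraries, and the ratio of DNMT3A to DNMT3B was 1.74, 4.30 and 2.89. DNMT3A exceeded DNMT3B in 3 of 3 libraries. DNMT3L, which has no catalytic activity and assists both enzymes in germ cells, was at 0.136, 0.330 and 0.307 TPM. Of the summed TPM of the 3 catalytic genes, DNMT1 made up 72.7%, 70.6% and 73.3%, DNMT3A 17.3%, 23.9% and 19.9%, and DNMT3B 9.98%, 5.55% and 6.86%. The share of DNMT1 varied little (72.2 ± 1.42%), and the share of DNMT3A was highest in replicate 2 and lowest in replicate 1, the reverse of DNMT3B.

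**Figure D2:**
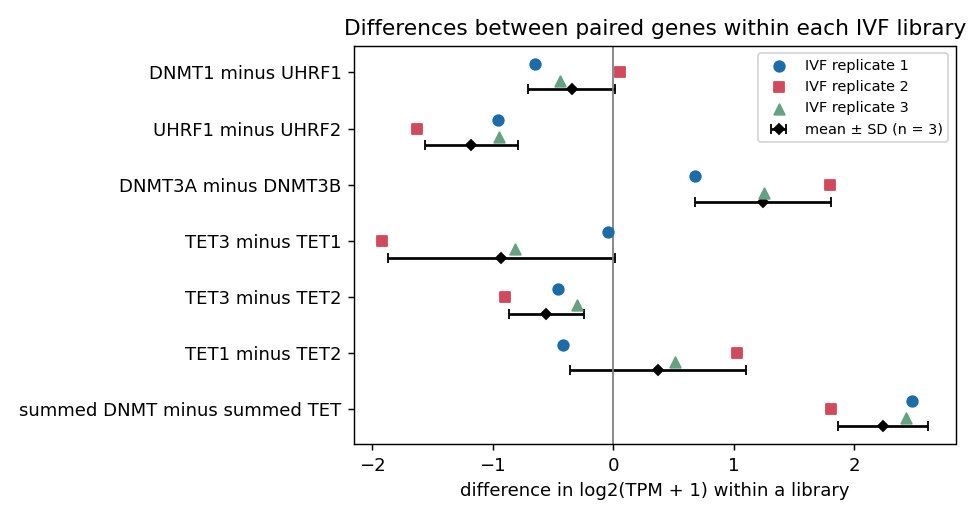
Difference in log2(TPM + 1) between the first and second named gene or sum within each IVF library (coloured points), with mean ± SD in black (n = 3); the vertical line marks no difference. UHRF1 lies below UHRF2 and summed DNMT above summed TET in every library, whereas DNMT1 minus UHRF1 and TET1 minus TET2 fall on both sides of 0.

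TET1 was the least even of the 9 genes that passed the filter. It was at 2.04, 9.28 and 3.14 TPM in replicates 1, 2 and 3, a 4.54-fold range set by replicate 2. Its log2 SD of 0.91 was larger than that of 95.7% of the 3049 gene symbols whose mean TPM was within 2-fold of its own; the median symbol among them had 0.41. Several noncoding genes and pseudogenes overlap the span of TET1 in ARS-UI_Ramb_v3.0. Those found in the expression table, LOC114110911 and LOC105604962, were at or below 0.466 and 0.0969 TPM, each highest in replicate 2. The pseudogene LOC132658670, which overlaps most, on 30.5% of the span, had no listed value, so its level is unknown.

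TET2 was at 3.06, 4.06 and 1.90 TPM in replicates 1, 2 and 3, highest in replicate 2 and lowest in replicate 3. TET3, the family member best known in the egg and zygote, was at 1.95, 1.71 and 1.34 TPM. On the log2(TPM + 1) scale TET3 was the most even gene of the 9: its SD was 0.17, and 11.1% of the 2551 symbols within 2-fold of its mean had a lower one. As a share of the mean TPM its SD was 18.4%, beside 16.2% for DNMT1 and 17.1% for UHRF1. With median-of-ratios scaling DNMT1 was at 32.7 ± 1.88 TPM and TET3 at 1.66 ± 0.317. Relative to its mean, DNMT1 was then the more even. The noncoding genes that overlap TET3 and DNMT3A in ARS-UI_Ramb_v3.0 were at or below 0.0423 and 0.322 TPM. TET3 lay below TET2 in every library, by 0.55 ± 0.31 on the log2(TPM + 1) scale. The place of TET1 in the family was not fixed. TET2 had the most TPM in replicate 1 (43.4% of the family sum, against 28.9% for TET1 and 27.7% for TET3), and TET1 in replicates 2 and 3 (61.7% and 49.2%). TET1 minus TET2 was -0.42, 1.02 and 0.51, a mean of 0.37 ± 0.73 that was smaller than its spread.

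Summed over each family, the methyltransferases were at 43.9, 55.1 and 38.7 TPM and the TET enzymes at 7.06, 15.1 and 6.38 TPM in replicates 1, 2 and 3. The ratio of the sums was 6.22, 3.66 and 6.07, lowest in replicate 2. On the log2(TPM + 1) scale the methyltransferase sum was higher by 2.24 ± 0.37 (3 of 3 libraries). Both sums were highest in replicate 2.

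TDG, the glycosylase that removes the most oxidised forms of methylcytosine, was lowest of the set. It was listed at 0 TPM in replicate 1 and stood at 0.0387 and 0.602 TPM in replicates 2 and 3. In replicate 1, 17.6% of gene symbols were listed at 0. No other gene overlaps TDG in ARS-UI_Ramb_v3.0. Whether the counting split reads between TDG and any near-identical copy was not tested, so its level is uncertain. Other DNA glycosylases were higher: UNG, which removes uracil, was at 81.4, 123 and 85.9 TPM, and MBD4, which like TDG acts on thymine mispaired at CpG sites, at 3.67, 4.67 and 2.62 TPM. SMUG1, a further uracil glycosylase, was at 0.663, 1.35 and 1.51 TPM. All of these exceeded TDG in each library.

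Replicate 2 held the highest value of 6 of the 9 genes that passed the filter (DNMT1, DNMT3A, UHRF2, TET1, TET2 and HELLS), and replicate 1 that of DNMT3B, UHRF1 and TET3. Among 9203 symbols passing the same filter, the highest value lay in replicate 2 for 48.6%, in replicate 1 for 35.7% and in replicate 3 for 15.7%. Against the mean log2(TPM + 1) of the other 2 libraries, the median of the 9 genes was 0.07, 0.44 and -0.34 in replicates 1, 2 and 3, where the median symbol was at -0.04, 0.19 and -0.16. Counts above that mean were 5 of 9 in replicate 1 (background 47.7%), 7 of 9 in replicate 2 (61.1%) and 0 of 9 in replicate 3 (34.9%). After scaling by the median of ratios between libraries, which moved the median symbol by 0.05, -0.16 and 0.10, those counts became 6, 6 and 2, beside 52.5%, 48.0% and 48.7% of symbols. With that scaling replicate 2 again held the highest value of 6 of the 9 genes, and that of 35.5% of symbols.

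A difference of at least 2-fold from the other libraries was found for TET1 alone. TET1 was higher by 1.53 in replicate 2, where 10% of symbols were at least 2-fold higher, and lower (-1.10) in replicate 1, where 5.38% were at least 2-fold lower. No gene of the set was 2-fold higher in replicate 1 (5.84% of symbols) or replicate 3 (0.663%), or 2-fold lower in replicate 2 (3.29%) or replicate 3 (2.68%). Both calls ended with a pseudocount of 5, at 0.92 and -0.61. Without replicate 2 the mean of TET1 fell from 4.82 to 2.59 TPM, and TET1 then ranked below DNMT3B. The call for replicate 1 also ended, since TET1 in replicate 1 was less than 2-fold below replicate 3. The summed TPM of the embryo list was 2761, 3415 and 2383 in replicates 1, 2 and 3, that of the cumulus and granulosa list 26.7, 44.9 and 23.9, that of the fibroblast list 13.5, 23.3 and 18.5, and that of the sperm list 40.1, 33.4 and 19.6. The first 3 sums were thus highest in replicate 2 and the last in replicate 1. Genes of the embryo list differed in this. KPNA7, at 542, 390 and 314 TPM, was among those highest in replicate 1, and ARGFX, at 376, 1022 and 444, among those highest in replicate 2. Others were highest in replicate 3. The part of these lists in the TET1 difference was not tested.

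**Figure D3:**
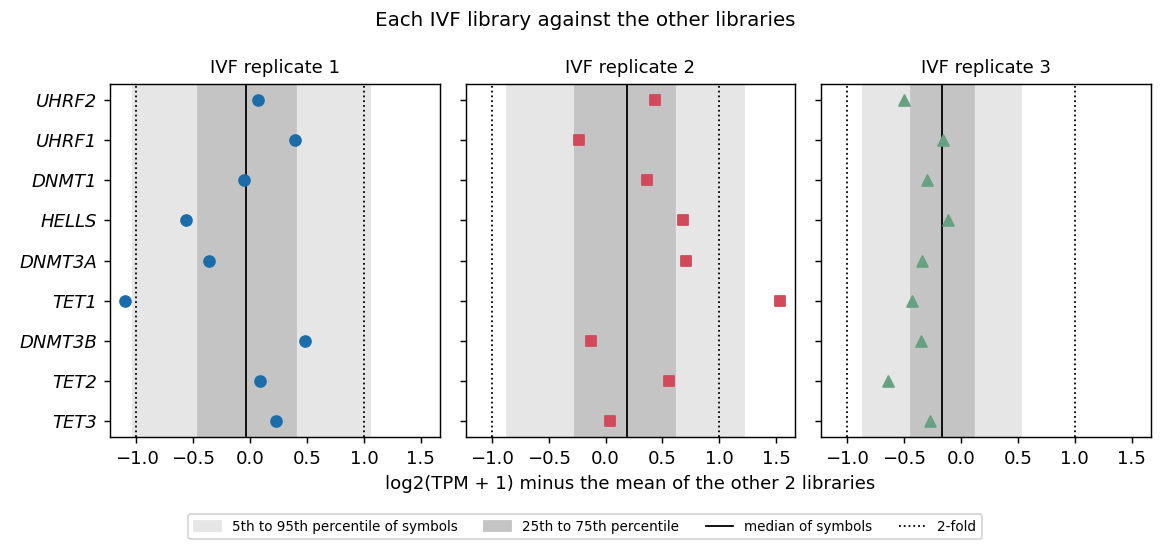
Each IVF library minus the mean of the other 2 on the log2(TPM + 1) scale for the 9 genes that averaged 1 TPM or more; grey bands give the central ranges of 9203 gene symbols, the black line their median and dotted lines a 2-fold difference. TET1 lies past 2-fold upwards in replicate 2 and downwards in replicate 1, and the other 8 genes stay within 2-fold in all libraries.

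The 6 lists of genes that work beside these enzymes were chosen with earlier results of these data known, so their counts are a description. Over them, 43 of 53 genes were at 1 TPM or more in all IVF libraries, beside 49% of all gene symbols. The counts per list below have the same background. In the list of partners of methylation maintenance 7 of 8 were, and 3 genes stood above all others of that list. PCNA, the replication clamp that holds DNMT1 at the fork, was at 532, 995 and 807 TPM, USP7, which stabilises UHRF1 and DNMT1 by removing ubiquitin, at 199, 177 and 140, and TRIM28, the corepressor that protects methylation at imprinted regions, at 32.2, 47.1 and 44.6. All 3 exceeded DNMT1 in each library, though TRIM28 was nearly level with it in replicate 1 (32.2 against 31.9 TPM). LIG1, the replication ligase that UHRF1 binds, was at 22.0 ± 4.74 TPM, and ZFP57, which guides TRIM28 to imprinted regions, at 2.21 ± 0.936. CDCA7L, the paralog of CDCA7, was the list's gene below 1 TPM, at 0.499 ± 0.176.

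De novo methylation partners were lower, 4 of 5 reaching 1 TPM in all libraries and none reaching 10. Their leaders were the histone H3 lysine 36 methyltransferases NSD1 (6.95 ± 2.82 TPM), NSD3 (5.36 ± 0.934) and SETD2 (4.88 ± 2.46), whose marks DNMT3A and DNMT3B bind. In the list of methyl-CpG binding domain proteins and zinc finger readers, 5 of 7 reached 1 TPM. The zinc finger reader ZBTB33 (Kaiso) was at 60.7, 16.1 and 18.9 TPM. It was highest in replicate 1, as were 35.7% of the symbols with a mean of at least 1 TPM. MBD3, which carries the domain but does not bind methylated CpG selectively in mammals, was at 10.7 ± 3.45 TPM. MBD2 was at 2.20, 12.6 and 4.21 TPM, highest in replicate 2, where 48.6% of those symbols had their highest value.

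Of 9 partners and cofactor enzymes of the TET proteins, 6 reached 1 TPM. IDH1, which makes the 2-oxoglutarate that TET enzymes consume, was at 161 ± 40.8 TPM and GADD45A, linked to demethylation through repair, at 58.5 ± 11.9. OGT, which binds TET proteins and adds sugar residues, was at 19.9, 69.4 and 24.6 TPM. It was highest in replicate 2, as were 48.6% of the symbols with a mean of at least 1 TPM. CXXC4 and CXXC5, which bind unmethylated CpG and TET2, were at 0.0194 ± 0.00814 and 0.173 ± 0.111 TPM.

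Base excision repair genes reached 1 TPM in 11 of 12 cases, with SMUG1 the exception. The repair polymerase POLB (190 ± 32.7 TPM), the endonuclease APEX1 (134 ± 38.0) and UNG (96.7 ± 22.7) led them. POLB and APEX1, which act after a glycosylase has removed a base, exceeded TDG in each library. Of 12 genes listed for methyl donor synthesis, 10 reached 1 TPM. MAT2A, which makes S-adenosylmethionine, was at 105 ± 13.8 TPM, its regulatory partner MAT2B at 71.4 ± 12.1, and TYMS at 235, 66.9 and 134. TYMS uses a folate carbon unit to make thymidylate and does not itself supply methyl groups to DNA.

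**Figure D4:**
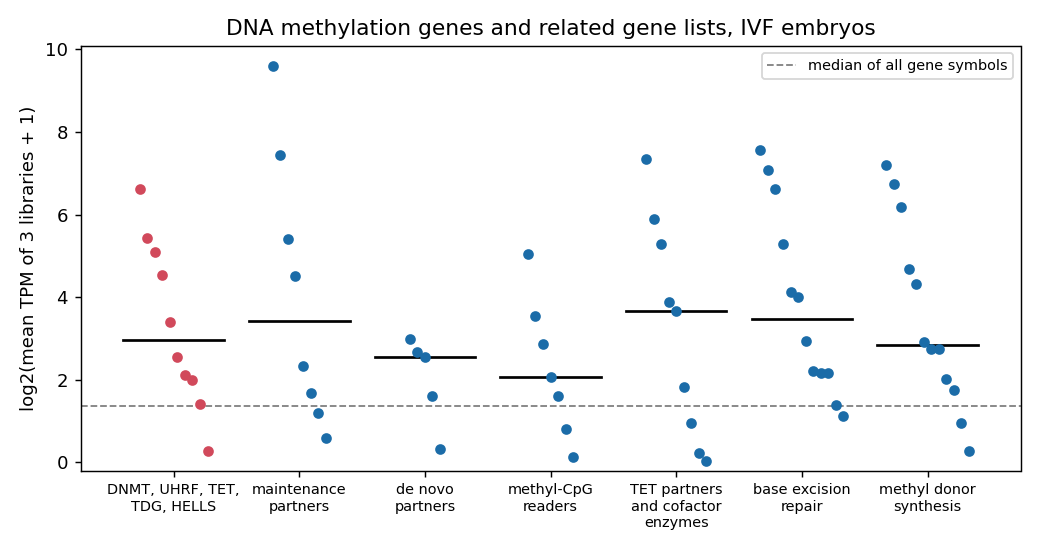
Mean TPM over the 3 IVF libraries, as log2(mean + 1), for each gene of the set (red) and of 6 related lists (blue); black bars are list medians and the dashed line is the median of all gene symbols. The median of each list lies above that of all symbols, at 1.58 TPM, and PCNA is the highest point. The lists were chosen with earlier results of these data known.

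The list medians of mean TPM were 7.15 for the 10 genes, 13.0 for maintenance partners, 4.88 for de novo partners, 3.23 for readers, 11.7 for TET partners, 10.9 for base excision repair and 6.16 for methyl donor synthesis. For 4 of the genes the symbols with the most similar profile were sought, as the smallest Euclidean distance of log2(TPM + 1) over the 3 libraries. DNMT1 was nearest to GEMIN8 (distance 0.05) and PUM3 (0.14), and UHRF1 to PPP1R14B (0.05) and RNF141 (0.11). DNMT3A was nearest to TASOR (0.09) and ZNF507 (0.13), and TET3 to LMBR1 (0.02) and RNF44 (0.03). TASOR, a subunit of a complex that silences repeated DNA, was at 7.67, 14.0 and 7.48 TPM beside 7.60, 13.2 and 7.69 for DNMT3A. With 3 libraries and 16539 symbols, such nearness describes these libraries only.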

How the data were processed

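The deposited table holds TPM made by the authors, and each column used sums to 1000000. Per the submitters' processing notes, fastp 0.23.4 was used for trimming and HISAT2 2.2.1 for alignment; the builds named there are of mouse and pig. The sheep build, annotation and counting tool were not given in the sources used here. Such values are shares of a library, so more of one gene means less of the rest, and they keep no depth.

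Columns were matched to samples by name. The 3 IVF columns matched and 4 other columns of per-sample values did not, and were not used. A few of their values and totals were seen while the table was inspected. Of 31304 row names, 28875 matched ARS-UI_Ramb_v3.0. Symbol rows exclude LOC identifiers and transfer and mitochondrial ribosomal RNA.

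Genes and lists were chosen with earlier results of these data known. DPPA3 and CYP19A1 were not analysed here. Named in the text are all 10 genes, the 3 highest genes per related list, the 2 highest per marker list, genes at 0 and the 2 nearest profiles; CDCA7, CDCA7L, DNMT3L, LIG1, ZFP57, MBD4, SMUG1, ZAR1, NLRP5, CXXC4 and CXXC5, from the same lists, were named after their values were seen. The scale of comparisons was log2(TPM + 1), on which low genes differ less than by their ratio. The steps for 2-fold differences and nearest profiles were tested on simulated data. That simulation left out genes with a mean below 5 TPM, TET1 among them, and planted changes larger than 2-fold. Its noise was set below the median log2 SD of 0.39 seen over symbols. It shows that the steps run as written and does not bear on the calls for TET1. Alternatives were pseudocounts of 0.1 and 5, thresholds of 0.1 and 5 TPM, median-of-ratios scaling, TPM rescaled after dropping mitochondrial and ribosomal protein genes, no filter on low values, and leaving out each library. Python 3.11.15, numpy 2.4.6, pandas 2.3.3 and matplotlib 3.10.9 were used.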

Additional observations from a re-analysis of the deposited data

How the results depend on the processing

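No paired analysis was possible because only IVF libraries were used. Comparing the remaining pair of libraries when 1 is left out, and the alternatives for each gene's mean TPM, were chosen after seeing the data. Of 110 values for counts and fixed pairs under alternatives, 103 stayed within 1 SD over libraries (counts within 1.5 times) and 7 moved further; none changed sign. Rescaling a library changes a difference between genes within it only through the pseudocount, and a pair with a wide SD has more room to stay within it. The count of 103 is therefore no measure of robustness. Of the 45 alternatives for mean TPM, which leave out TDG, 42 stayed within 1 SD and 3 moved further. These 3 came from dropping mitochondrial and ribosomal protein genes. DNMT1 then rose from 33.1 to 40.0 TPM, UHRF1 from 42.3 to 51.0 and TET3 from 1.67 to 2.02. Genes of the set at 1 TPM or more in all libraries numbered 9, and 5 at 5 TPM, as the higher threshold sets; of the related genes, 43 became 24. Summed DNMT minus summed TET, 2.24, became 1.85 with a pseudocount of 5, which shrinks differences of low sums. With that pseudocount the number of genes at least 2-fold higher in replicate 2 and lower in replicate 1 became 0 each, against 1. Leaving out each library in turn gave 0 to 1 genes at least 2-fold lower in replicate 1, with 0 without replicate 2, and 0 to 1 lower in replicate 3, with 1 without replicate 1 (against 0 with all libraries). TET3 minus TET1 ranged from -1.37 to -0.43 and TET1 minus TET2 from 0.05 to 0.77, and both were nearest to 0 without replicate 2. Neighbouring pairs apart numbered 6 to 7, against 6. The order of the 10 genes changed only without replicate 2, where DNMT3B and TET1 changed places. Depth is unknown, so for TDG and other low values few molecules and missed ones cannot be told apart.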
